A study of Mus musculus with 51 samples.

Results

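The proteasome genes on this array were examined across 3 hippocampal subfields and 3 genotypes. A gene was taken when its symbol begins with Psma, Psmb, Psmc, Psmd, Psme, Psmf or Psmg and a digit, which gave 46 of the 11807 genes with a single symbol on the platform, read by 67 of 22626 probe sets. Each gene was read from the probe set of highest mean signal over all 51 arrays. Of the 46 genes, 18 encode subunits of the 20S core, 16 encode subunits of the 19S regulatory particle, 3 the 11S activators, 1 an inhibitor, 4 chaperones of core assembly and 2 chaperones of 19S assembly. The symbols of the other 2, Psmc3ip and Psme3ip1, also fit, but these genes encode interacting proteins and not subunits. Psmc6, Psmd10, Psme4 and Psmb11 were not analysed here.

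Each of 17 mice, female by their labels and 4.5 months old, gave 1 array each for the laser-captured cell layers of CA1, CA3 and the dentate gyrus (DG). The rTg4510 mice (6 animals) carry 2 transgenes, human tau with a proline-to-leucine change linked to frontotemporal dementia, behind a tetracycline-responsive element, and the transactivator tTA under the CaMKIIα promoter, which drives tau in forebrain excitatory neurons. The tTA mice (5 animals) carry the transactivator only, and the double negative mice (DN, 6 animals) carry neither. All came as littermates from crosses of FVB/N tau breeders with tTA breeders of another strain, so that the background is mixed in all 3 genotypes. Mice are numbered here within a genotype, and by the sample titles the same number marks the same animal in each subfield. Values are log2 RMA signals. A signal depends on the probe as well as on the transcript, so signals of different genes were not set against each other.

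The proteasome is the main protease of the cytosol and nucleus and degrades proteins that carry ubiquitin chains. Its 20S core is a barrel of alpha and beta rings with the catalytic sites inside, and the 19S particle on its ends binds the chains, removes them and feeds the unfolded protein into the core with a ring of ATPases. Interferon induces 3 catalytic beta subunits, Psmb8, Psmb9 and Psmb10, which replace Psmb5, Psmb6 and Psmb7 in the immunoproteasome, and the 11S activator of Psme1 and Psme2. In neurons the proteasome takes part in synaptic plasticity, and tau is among the proteins it can degrade. Proteasome genes are known to rise together when proteasome activity is blocked, through the transcription factor Nfe2l1, which binds antioxidant response elements.

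The promoters of 4 genes whose signals differed between subfields are given here, as the 250 bases before the start site in RefSeq (build GRCm38.p6), read 5′ to 3′ on the strand of the gene. They were chosen because Psmb5 and Psmd8 were higher in CA3 than in the DG, and because Psme1 and Psme2, which lie 5912 bases apart on chromosome 14, were both lower in CA1 than in CA3. Capitals mark a match to the antioxidant response core TGACNNNGC in Psmb5 and to the GC box GGGCGG, on either strand, in the others.
Psmb5: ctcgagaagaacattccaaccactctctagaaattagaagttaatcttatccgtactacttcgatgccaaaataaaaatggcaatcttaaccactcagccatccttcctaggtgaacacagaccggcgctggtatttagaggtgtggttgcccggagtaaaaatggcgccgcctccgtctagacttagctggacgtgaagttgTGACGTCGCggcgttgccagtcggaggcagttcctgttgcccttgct
Psmd8: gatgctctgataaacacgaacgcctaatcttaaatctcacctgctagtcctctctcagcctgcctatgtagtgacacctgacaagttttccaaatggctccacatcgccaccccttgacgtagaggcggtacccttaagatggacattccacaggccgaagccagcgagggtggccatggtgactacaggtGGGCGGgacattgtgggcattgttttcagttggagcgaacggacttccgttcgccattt
Psme1: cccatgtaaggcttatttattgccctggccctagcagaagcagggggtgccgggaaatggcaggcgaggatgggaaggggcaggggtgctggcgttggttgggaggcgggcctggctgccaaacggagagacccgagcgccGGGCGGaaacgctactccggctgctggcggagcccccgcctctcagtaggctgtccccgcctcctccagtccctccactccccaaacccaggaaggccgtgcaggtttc
Psme2: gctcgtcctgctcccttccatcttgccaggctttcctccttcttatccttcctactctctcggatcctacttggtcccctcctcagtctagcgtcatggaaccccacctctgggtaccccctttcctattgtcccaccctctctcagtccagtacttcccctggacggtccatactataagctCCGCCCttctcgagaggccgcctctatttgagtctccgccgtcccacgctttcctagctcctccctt
The window of Psmb5 spans chr14:54617996-54618245 on the minus strand, and its match starts 47 bases before the start site. That of Psmd8 spans chr7:29180674-29180923 on the minus strand, with the GC box 59 bases before the start. Psme1 (chr14:55578244-55578493, plus strand) has its GC box at 109 bases, and Psme2 (chr14:55591102-55591351, minus strand) has it at 67 bases on the opposite strand.

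Most proteasome genes gave a signal well inside the measured range. The array medians lay between 2.91 and 3.12, and 43 of the 46 genes had a mean signal above the median. The exceptions were Psma8, a testis-type alpha subunit that was under the array median on all 51 arrays (mean 1.66), Psmb8 (mean 1.93, under it on 48 arrays) and Psmb9 (mean 2.83, under it on 37 arrays). The third immunoproteasome subunit, Psmb10, was above the array median on every array (mean 5.36, lowest 4.29, highest 6.64). The residual SD within a group was 0.57 in the median over the 46 genes, against 0.62 over the 6174 genes above the median signal. Psmd14, the deubiquitinase of the 19S lid, varied least (residual SD 0.23) and Psmg4, a chaperone of core assembly, varied most (1.13).

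Several facts about the arrays bear on each result. Among markers of the subfields, Prox1, Dsp, Calb1 and C1ql3 were lower in CA1 and CA3 than in the DG, and Bok and Prkcd were higher in CA3 than in the DG and lower in CA1 than in CA3. Of 6 CA1 markers, Crym, Pou3f1 and Bcl6 were higher in CA1 than in CA3, while Wfs1, Htr1a and Dcn did not pass the test. Only Crym was higher in CA1 than in the DG. The mean of Bok and Prkcd ran from 1.99 to 6.95 in CA1, 6.09 to 7.74 in CA3 and 3.22 to 6.22 in the DG. In each genotype the highest CA1 array, at 6.95 (rTg4510), 6.21 (tTA) and 6.63 (DN), lay in the CA3 range. The mean of the CA1 markers ran from 3.84 to 7.23 in CA1, 2.96 to 3.83 in CA3 and 4.12 to 5.45 in the DG. The part of this overlap in the proteasome results was not tested. Prnp, which read between 9.59 and 10.55 on the other 17 rTg4510 arrays, 7.17 and 8.46 on the tTA arrays and 6.57 and 8.76 on 12 DN arrays, went against the label on 5 arrays (all 3 of DN mouse 4, the DG array of DN mouse 5 and the DG array of rTg4510 mouse 3). Xist, an RNA of the inactive X chromosome of females, was low on 3 arrays, the CA1 and CA3 arrays of DN mouse 5 and the DG array of rTg4510 mouse 3, where the other arrays read 7.85 or more. All arrays were kept under their labels. Results are also given with these 5 left out, and with 7 left out (the CA1 and CA3 arrays of DN mouse 5 in addition). The log2 difference between the 3′ and 5′ control probe sets of Gapdh, a sign of shortened RNA, had medians of 2.32 (CA1), 2.40 (CA3) and 2.67 (DG), so that it moved with the subfield. In layers captured from tissue, fewer cells of a type and less RNA per cell cannot be told apart.

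CA3 differed most from the DG. Of the 46 genes, 6 were higher in CA3 at an adjusted p under 0.05 and 0 were lower, where 7.27% of all probe sets were higher, 6.59% were lower and 13.9% differed in either direction. They were 2 subunits of the 19S lid (Psmd8 and Psmd13), 1 catalytic subunit of the standard core (Psmb5), 1 of the immunoproteasome (Psmb10), 1 alpha ring subunit (Psma3) and 1 subunit of the 11S activator (Psme2). The share of 6 in 46 is close to the share of all probe sets that differed. Among the 6174 genes above the median signal, of which 43 are proteasome genes, 11.8% were higher and 10.7% were lower.

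Psmd8, a lid subunit of the 19S particle, had the smallest adjusted p. Its signal was 5.55 at the lowest, 6.25 at the median and 7.60 at the highest in CA3, against 4.84, 5.59 and 6.63 in the DG (n = 17 mice each). It averaged 6.40 ± 0.54 in CA3 and 5.60 ± 0.47 in the DG (SD), a difference of 0.80 (SE, the standard error, 0.16, and adjusted p = 0.00028 by limma). The subfields overlapped, but 6 CA3 arrays lay above the highest DG array, 8 DG arrays lay below the lowest CA3 array, and 16 of 17 mice were higher in CA3. The exception was tTA mouse 4.

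Psmb10 takes the place of Psmb7 in the immunoproteasome. It read 5.19 at the lowest, 5.67 at the median and 6.64 at the highest in CA3, against 4.29, 5.05 and 5.78 in the DG. The difference was 0.66 (SE 0.14, adjusted p = 0.000475), with means of 5.68 ± 0.36 in CA3 and 5.02 ± 0.45 in the DG. All 17 CA3 arrays lay above the DG median, 11 DG arrays lay below the lowest CA3 array, and 16 of 17 mice were higher in CA3. The exception was rTg4510 mouse 3 (−0.03), and DN mouse 5 had the largest difference (1.83). The DG arrays of both mice went against their label in Prnp. The other immunoproteasome subunits did not pass the test, Psmb8 at a difference of 0.23 (adjusted p = 0.508) and Psmb9 at −0.10 (adjusted p = 0.797), both near the array median or under it.

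Psmb5 carries the chymotrypsin-like site of the standard core. Its signal was 6.55, 7.66 and 8.48 (lowest, median, highest) in CA3, against 5.66, 6.97 and 7.79 in the DG. With means of 7.62 ± 0.44 in CA3 and 6.95 ± 0.57 in the DG, Psmb5 differed by 0.67 (SE 0.16, adjusted p = 0.00348). It was higher in CA3 in 15 of 17 mice, and 16 CA3 arrays lay above the DG median. The lowest DG values, 5.66 and 5.81, came from rTg4510 arrays. The other standard catalytic subunits did not pass the test, Psmb6, the caspase-like one, at 0.01 (adjusted p = 0.991) and Psmb7, the trypsin-like one, at 0.36 (adjusted p = 0.261).

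Psmd13, another lid subunit, showed the largest difference and the widest spread. It read 4.22, 5.85 and 8.66 (lowest, median, highest) in CA3, against 3.40, 5.09 and 5.92 in the DG. The means were 6.02 ± 0.99 in CA3 and 4.93 ± 0.84 in the DG, a difference of 1.09 (SE 0.29, adjusted p = 0.00871). In 14 of 17 mice it was higher in CA3, by up to 4.03 in tTA mouse 5, while in tTA mouse 2 the difference was −1.70.

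Psma3 and Psme2 were closer to the threshold. Psma3, an alpha ring subunit, averaged 7.93 ± 0.43 in CA3 (lowest 7.13, median 8.03, highest 8.59) and 7.55 ± 0.33 in the DG (7.02, 7.63 and 8.31), a difference of 0.38 (SE 0.11, adjusted p = 0.0155) that 12 of 17 mice showed. Psme2, the beta subunit of the 11S activator, averaged 4.35 ± 0.58 in CA3 (lowest 3.15, median 4.39, highest 5.01) and 3.82 ± 0.70 in the DG (2.77, 3.83 and 5.72), a difference of 0.53 (SE 0.17, adjusted p = 0.0341), also in 12 of 17 mice. The highest Psme2 array of both subfields was a DG array, that of tTA mouse 4. Psme1, the other subunit of this activator, averaged 6.04 ± 0.52 in CA3 and 5.62 ± 0.52 in the DG and did not pass the test. Just outside the threshold were Psmd5, a chaperone of 19S assembly (0.51, adjusted p = 0.0683), Psma4 of the alpha ring (0.54, adjusted p = 0.0749) and Psmd12 of the lid (0.53, adjusted p = 0.0749).

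With the Gapdh 3′ minus 5′ signal as a covariate, 5 genes were higher in CA3 than in the DG. Psmd8 (0.77, adjusted p = 0.0031), Psmb10 (0.63, adjusted p = 0.00488), Psmd13 (1.22, adjusted p = 0.0125) and Psmb5 (0.54, adjusted p = 0.0469) were among them, as was Psmd9, a chaperone of 19S assembly. Psma3 (0.29, adjusted p = 0.123) and Psme2 (0.38, adjusted p = 0.216) were not. Without the 7 doubtful arrays 9 genes were higher, and Psme2 was not among them (0.54, adjusted p = 0.0614). Without the 5 arrays its adjusted p was 0.0569. Leaving out any 1 of 9 mice (DN 2, 3 and 6, rTg4510 1, 2, 3 and 5, tTA 1 and 5) also ended the call of Psme2, with an adjusted p of up to 0.0808.

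**Figure D1:**
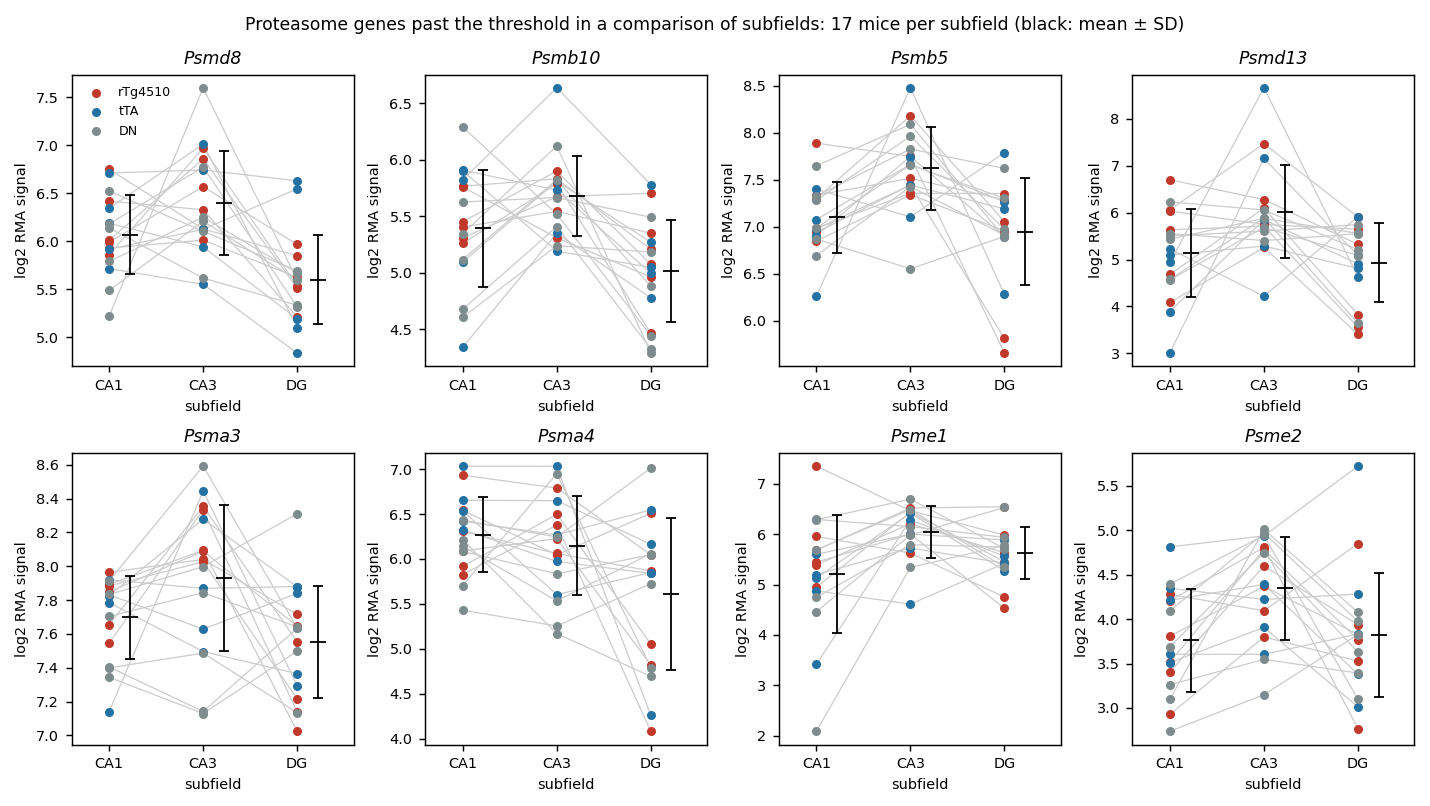
Log2 RMA signal (vertical axes) of the 8 proteasome genes that passed the threshold in a comparison of subfields, by subfield (horizontal axes). Points are arrays coloured by genotype, grey lines join the arrays of a mouse, and black bars give the mean ± SD of 17 mice. Psmd8 and Psmb10 were higher in CA3 than in the DG in 16 of 17 mice, and the values of all 8 genes overlap between subfields.

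In CA1 against the DG, 2 of 46 genes passed the test, both higher in CA1, where 10.9% of all probe sets differed, 5.60% higher and 5.33% lower. Psma4, an alpha ring subunit, read 5.43, 6.31 and 7.03 (lowest, median, highest) in CA1, against 4.08, 5.85 and 7.01 in the DG. The means were 6.27 ± 0.42 in CA1 and 5.61 ± 0.84 in the DG, and the difference was 0.66 (SE 0.20, adjusted p = 0.0288), higher in CA1 in 14 of 17 mice. The DG arrays were spread more widely than the CA1 arrays, and 6 of them lay below the lowest CA1 array.

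Psmd8 averaged 6.07 ± 0.41 in CA1 (lowest 5.22, highest 6.75) and 5.60 ± 0.47 in the DG (4.84 and 6.63), a difference of 0.47 (SE 0.16, adjusted p = 0.0457) that 14 of 17 mice showed. It was thus above the DG in both CA fields. The next genes were Psma2 of the alpha ring (0.34, adjusted p = 0.0524), Psmb10 (0.38, adjusted p = 0.0671) and Psmd12 of the lid (0.47, adjusted p = 0.143). With the Gapdh covariate 0 genes passed, and Psma4 differed by 0.36 (adjusted p = 0.444) and Psmd8 by 0.43 (adjusted p = 0.204). Leaving out 1 mouse ended the call of Psma4 for 5 mice (DN mouse 1, rTg4510 mice 1, 4 and 5, and tTA mouse 4), with an adjusted p of up to 0.0626. It ended that of Psmd8 for 12 mice (DN 2 to 5, rTg4510 1, 2, 4, 5 and 6, tTA 1 to 3), with an adjusted p of up to 0.0972, and Psmd8 did not pass without the 5 arrays (adjusted p = 0.0833).

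Of the pairs followed throughout, the standard catalytic subunits differed by 0.15 (Psmb5, adjusted p = 0.679), 0.12 (Psmb6, 0.827) and 0.27 (Psmb7, 0.501) between CA1 and the DG. Psmb8 differed by 0.18 (adjusted p = 0.7) and Psmb9 by 0.12 (adjusted p = 0.816). The 11S subunits did not pass either, Psme1 at −0.41 (adjusted p = 0.356) and Psme2 at −0.06 (adjusted p = 0.907).

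In CA1 against CA3, 2 of 46 genes passed the test and both were lower in CA1, where 4.68% of all probe sets differed, 2.46% higher and 2.22% lower. They were the pair that forms the interferon-inducible 11S activator. Psme1, its alpha subunit, read 2.09, 5.39 and 7.35 (lowest, median, highest) in CA1, against 4.61, 6.15 and 6.69 in CA3. It averaged 5.21 ± 1.17 in CA1 and 6.04 ± 0.52 in CA3, a difference of −0.83 (SE 0.24, adjusted p = 0.0396), and it was higher in CA1 in only 4 of 17 mice. The CA1 values were the more scattered, with both the lowest array (DN mouse 1) and the highest (rTg4510 mouse 1) of the 2 subfields.

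Psme2 read 2.74, 3.69 and 4.81 (lowest, median, highest) in CA1, against 3.15, 4.39 and 5.01 in CA3. The difference was −0.59 (SE 0.17, adjusted p = 0.0392), with means of 3.76 ± 0.58 in CA1 and 4.35 ± 0.58 in CA3, and 3 of 17 mice were higher in CA1. Psme3, the subunit of the separate nuclear 11S activator, differed by −0.24 (adjusted p = 0.71). Next in order were Psmb5 (−0.52, adjusted p = 0.0596), Psmd13 (−0.88, adjusted p = 0.0781) and Psmc3, an ATPase of the 19S base (−0.34, adjusted p = 0.189). Neither call of the activator pair held without the 5 arrays (Psme2 adjusted p = 0.112, Psme1 adjusted p = 0.0552) or without the 7 arrays (Psme2 adjusted p = 0.135, Psme1 adjusted p = 0.104). Leaving out 1 mouse ended the call of Psme2 for 9 mice (DN 3 to 6, rTg4510 1, 2, 3 and 6, tTA 1), with an adjusted p of up to 0.0959. It ended that of Psme1 for 12 mice (DN 1, 2, 4, 5 and 6, rTg4510 2 to 4, tTA 1, 3, 4 and 5), with an adjusted p of up to 0.0932. With the Gapdh covariate both passed (Psme2 adjusted p = 0.0214, Psme1 adjusted p = 0.0447).

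Among the other pairs, Psmb8 differed by −0.05 (adjusted p = 0.94), Psmb9 by 0.22 (adjusted p = 0.671) and Psmb10 by −0.29 (adjusted p = 0.283) between CA1 and CA3. Psmb6 differed by 0.12 (adjusted p = 0.865) and Psmb7 by −0.09 (adjusted p = 0.891).

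Beyond the calls, the highest mean of a gene was most often that of CA3. Of the 46 genes, 28 had their highest mean in CA3 and 24 their lowest in the DG, and these counts were not made over all genes. The median difference of CA3 from the DG was 0.17 over the 46 genes, against 0.05 over all 11807 genes, and 33 of 46 genes were above 0, against 59.4% of all genes. With the Gapdh covariate the median of the 46 genes was 0.09. For CA1 against the DG the median was 0.07, against 0.02 over all genes, with 28 of 46 above 0, against 54.5% of all genes, and with the Gapdh covariate the median of the 46 genes was −0.03. For CA1 against CA3 it was −0.12, against −0.03 over all genes, with 12 of 46 above 0, against 43.4% of all genes, and −0.15 with the Gapdh covariate. At an unadjusted p under 0.05 there were 13, 8 and 11 of 46 genes for CA3 against the DG, CA1 against the DG and CA1 against CA3, where 25.9%, 21.9% and 15.9% of all probe sets passed.

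In the 19S regulatory particle, of 16 measured subunits, 11 were highest in CA3, and 15 were lower in CA1 than in CA3, although 0 of these 15 differences passed the test. All 8 lid subunits and all 5 ATPases were among the 15. The exception was Psmd2, a scaffold subunit of the base. In CA3 against the DG the 8 lid subunits differed by −0.22 to 1.09 with a median of 0.40, and 7 of them were above 0. Psmd11 was the exception at −0.22. The 5 ATPases ranged from −0.13 to 0.29 with a median of 0.21, and the other base subunits, Psmd1, Psmd2 and the ubiquitin receptor Psmd4, from −0.02 to 0.22.

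In the 20S core the alpha ring was higher in CA3 than in the DG for 7 of 8 genes, with a median of 0.20, but only Psma3 passed the test. The non-catalytic beta subunits Psmb1 to Psmb4 had a median of 0.02, and 2 of 4 were above 0. The 4 chaperones of core assembly, Psmg1 to Psmg4, had a median of 0.05, and the 2 chaperones of 19S assembly, Psmd5 and Psmd9, differed by 0.51 and 0.40. Psmf1, the inhibitor of the core, ran the other way at −0.41 (adjusted p = 0.365), and was −0.61 in CA1 against the DG (adjusted p = 0.182). Its other 3 probe sets differed by −0.02, −0.03 and −0.04 in CA1 against the DG, so that the size of the difference rests on 1 of 4 probe sets.

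**Figure D2:**
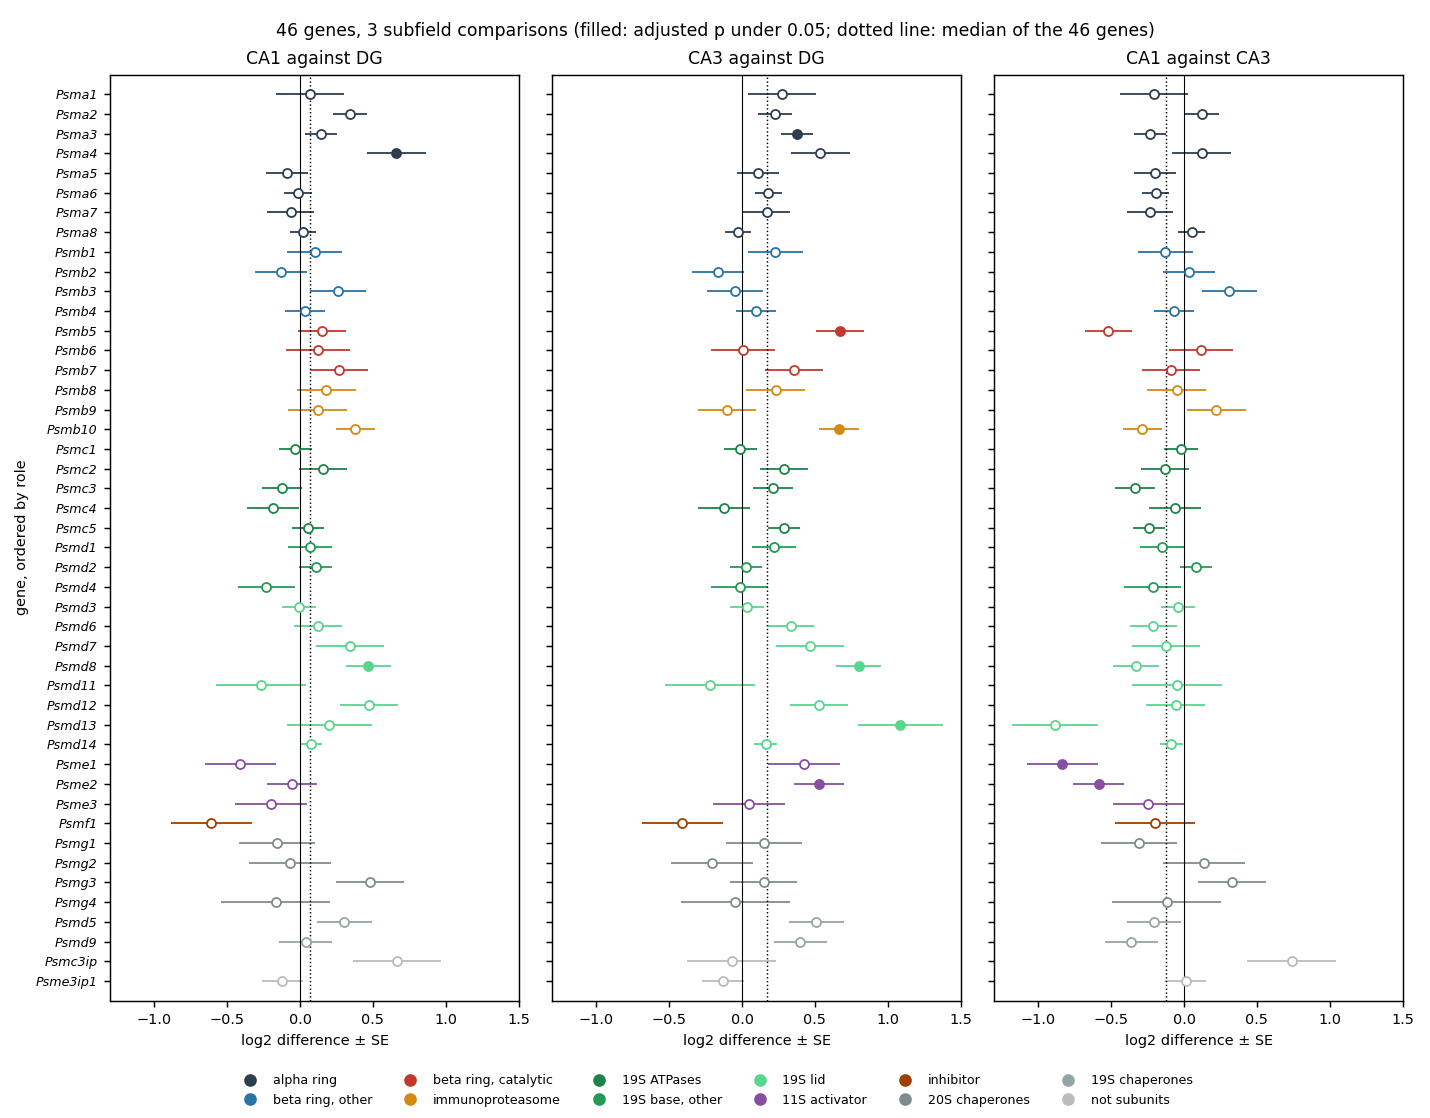
Log2 difference ± standard error (horizontal axes) of each of the 46 genes (vertical axis, ordered by role) in CA1 against the DG, CA3 against the DG and CA1 against CA3. Filled points passed an adjusted p of 0.05 and dotted lines mark the median of the 46 genes, at 0.07, 0.17 and −0.12. The largest filled difference is that of Psmd13, at 1.09 in CA3 against the DG.

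The same differences were read within each genotype, and whether the median differs between genotypes was not tested. In rTg4510 mice the median of the 46 differences of CA3 from the DG was 0.35, with 39 genes above 0, in tTA mice 0.27 with 32 above 0, and in DN mice 0.05 with 27 above 0. The median of the 46 differences within a mouse lay above 0 in 5 of 6 rTg4510 mice, 3 of 5 tTA mice and 4 of 6 DN mice. It ran from −0.105 to 1.05 in rTg4510 mice, −0.18 to 0.61 in tTA mice and −0.18 to 0.45 in DN mice, so that the genotypes overlapped. The lowest rTg4510 value was that of mouse 3 and the lowest DN value that of mouse 4, and both mice have arrays whose Prnp went against the label. The highest rTg4510 value, 1.05, was that of mouse 5, whose DG array had the highest Gapdh 3′ minus 5′ signal of all arrays (3.62). These medians by genotype were not computed without any of these arrays. The Gapdh 3′ minus 5′ signal of the DG arrays had a median of 2.89 in rTg4510 mice, 2.44 in tTA mice and 2.71 in DN mice, and its part in these medians was not tested. The genes called kept their direction in each genotype. Psmd8 differed by 0.86, 0.61 and 0.89 in rTg4510, tTA and DN mice, Psmb10 by 0.55, 0.57 and 0.86, Psmb5 by 0.91, 0.60 and 0.49, and Psmd13 by 1.48, 1.17 and 0.62. Psma3 differed by 0.77 in rTg4510 mice, 0.29 in tTA mice and 0.06 in DN mice, and Psme2 by 0.63, 0.17 and 0.73.

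The layers also differed in genes of other cell types. Of 7 measured astrocyte genes, 5 were lower in CA1 than in the DG and 3 were lower in CA3 than in the DG, Gfap by the most (a difference of −1.98 in CA1 against the DG and −1.42 in CA3 against the DG). Their mean signal per array ran from 5.65 to 7.81 in CA1, 5.56 to 7.36 in CA3 and 5.53 to 7.88 in the DG, and 1 of the 7 had a mean under the array median. Of 10 microglial genes, 7 of them with a mean under the array median, 2 were lower and 1 was higher in CA3 than in the DG, with mean signals of 2.75 to 5.07 in CA1, 2.56 to 4.11 in CA3 and 2.78 to 4.43 in the DG. Of 6 interneuron genes, Gad1, Gad2 and Npy were lower in CA3 than in the DG, Gad1 and Npy were lower and Pvalb and Vip higher in CA1 than in the DG, and the mean signal ran from 5.04 to 7.61 in CA1, 4.92 to 5.92 in CA3 and 5.34 to 6.65 in the DG. Of 7 oligodendrocyte genes Mal was higher in CA3 than in the DG, and 0 of 7 vessel genes differed. Of 17 interferon and MHC genes, 11 of them with a mean under the array median, H2-D1 was higher and Ifit2 and Iigp1 were lower in CA3 than in the DG, and Irf1 and Iigp1 were lower in CA1 than in the DG. In CA1 against CA3, Slc1a2 (astrocyte) and Irf1 were lower and Gad1, Pvalb and Vip were higher. The part of these cells in the proteasome results was not tested.

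Genes that work with the proteasome were read from a list of ubiquitin pathway genes, of which 50 of 70 were measured. In CA3 against the DG 7 were higher and 1 was lower, where 7.27% of all probe sets and 11.8% of the 6174 brighter genes were higher. The deubiquitinases that sit on the 19S particle, Usp14 (0.50, adjusted p = 0.0216) and Uchl5 (0.50, adjusted p = 0.000389), were higher, as were the proteasome-bound ligase Ube3c (0.57, adjusted p = 0.00528) and Nfe2l1, the transcription factor of proteasome genes (0.68, adjusted p = 0.000248). The ubiquitin-conjugating enzymes Ube2j1 (0.78), Ube2v2 (0.64) and Ube2b (0.40) were higher and Ube2h was lower (−0.65). In CA1 against the DG 7 were higher and 0 were lower, where 5.60% of all probe sets and 9.85% of the brighter genes were higher. They were Nfe2l1 (0.40, adjusted p = 0.0455), Ube3c (0.50), Ube2j1 (0.71), Ube2v2 (0.53), Ube2b (0.36), Ube2e2 (0.41) and the shuttle factor Rad23b (0.24). In CA1 against CA3 only Ube2h passed, higher in CA1 (0.53), where 2.46% of all probe sets were higher. The median of the 50 genes was 0.11 in CA3 against the DG and 0.16 in CA1 against the DG.

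The comparison of rTg4510 with tTA mice asks what the tau transgene changes, since both genotypes carry the transactivator. No proteasome gene passed the test in any subfield. By limma 0 of 46 genes had an adjusted p under 0.05 in CA1, CA3 or the DG, where 0% of all probe sets passed in CA1 and the DG and 0.00442% (1 probe set) in CA3. Fisher's least significant difference test also called 0 of 46. At an unadjusted p under 0.05 there were 3 genes in CA1, 1 in CA3 and 3 in DG arrays, where 3.97%, 5.91% and 5.71% of all probe sets passed. The median difference was 0.09 (CA1), 0.08 (CA3) and −0.13 (DG), against −0.02, −0.03 and −0.00 over all genes. The rTg4510 DG arrays had a higher Gapdh 3′ minus 5′ signal (median 2.89) than the tTA DG arrays (2.44), and with this signal as a covariate the DG median was 0.09. Over 30 alternatives the medians ran from 0.03 to 0.12 (CA1), −0.07 to 0.17 (CA3) and −0.22 to 0.09 (DG). Of the genes of glia 0 passed the test against tTA mice. Above 0 lay 7 of 7 oligodendrocyte genes in each subfield, with medians of 1.13 (CA1), 1.0003 (CA3) and 0.79 (DG), and 10, 6 and 3 of 10 microglial and 7, 6 and 7 of 7 astrocyte genes. Their part in the proteasome medians was not tested.

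In CA1 the smallest p belonged to Psmd7, a lid subunit, at 5.22 ± 0.54 in rTg4510 mice (n = 6) and 4.31 ± 0.82 in tTA mice (n = 5). The rTg4510 arrays read 4.58 at the lowest, 5.15 at the median and 6.21 at the highest, and the tTA arrays read 3.81, 4.67, 5.20, 3.16 and 4.72. The difference was 0.91 (SE 0.39, adjusted p = 0.999), and the arms overlapped. Psmg2, a chaperone of alpha ring assembly, was the only gene whose arms did not overlap, as in 0.423% of all genes. It read 4.09 to 4.70 (median 4.46) in rTg4510 mice, against 4.92, 4.93, 4.91, 5.70 and 4.81 in tTA mice, a difference of −0.67 (SE 0.29, adjusted p = 0.999). The DN arrays ran from 2.89 to 4.87 and overlapped both.

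Psmd13 in CA1 read 4.08, 5.83 and 6.70 (lowest, median, highest) in rTg4510 mice, against 3.89, 5.23, 5.10, 3.01 and 4.94 in tTA mice, a difference of 1.10 (SE 0.49, adjusted p = 0.999). Psmf1 averaged 4.01 ± 0.56 in rTg4510 mice and 3.29 ± 0.75 in tTA mice, a difference of 0.73 (SE 0.41, adjusted p = 0.999). Psmb7 averaged 8.12 ± 0.40 in rTg4510 mice and 8.57 ± 0.74 in tTA mice (−0.45, SE 0.30, adjusted p = 0.999), and 1 tTA array at 9.84 stood above all others. None of these differences passed the adjusted threshold.

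In CA3 the smallest p was that of Psmd9, a chaperone of 19S assembly. It read 3.29, 3.96 and 4.71 (lowest, median, highest) in rTg4510 mice, against 4.36, 4.88, 3.86, 5.62 and 5.75 in tTA mice, a difference of −0.99 (SE 0.38, adjusted p = 0.819). The DN arrays averaged 4.18, between the 2 transgenic groups. Psma5 of the alpha ring averaged 7.51 ± 0.23 in rTg4510 mice and 7.08 ± 0.54 in tTA mice (0.44, adjusted p = 0.843), and Psmd14 averaged 9.38 ± 0.17 in rTg4510 mice and 9.13 ± 0.32 in tTA mice (0.25, adjusted p = 0.843). Psmc3ip, not a subunit, differed by 1.25 (adjusted p = 0.843) and Psma8, under the array median throughout, by −0.24 (adjusted p = 0.863). No arms were separate in CA3, where 0.661% of all genes had separate arms.

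In the DG the smallest p was that of Psmb8, the interferon-inducible partner of Psmb5. It read 1.63, 2.11 and 2.47 (lowest, median, highest) in rTg4510 mice, against 1.54, 1.67, 1.83, 1.14 and 1.48 in tTA mice, a difference of 0.55 (SE 0.20, adjusted p = 0.792). All of these values lie below the array medians. Psmg3, a core chaperone, averaged 3.23 ± 0.54 in rTg4510 mice and 3.92 ± 0.61 in tTA mice (−0.69, adjusted p = 0.825), and Psmc4, an ATPase, averaged 7.31 ± 0.28 in rTg4510 mice and 7.90 ± 0.58 in tTA mice (−0.59, adjusted p = 0.833). Psma2 differed by −0.43 (adjusted p = 0.879) and Psmc1, an ATPase, by 0.37 (adjusted p = 0.888). In the DG 0 genes had separate arms, where 0.440% of all genes had.

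The catalytic pairs and the activator pair were followed in the same way, and none passed the test between rTg4510 and tTA mice. Over the 8 genes and 3 subfields the differences ran from −0.45 (Psmb7 in CA1 and Psmb6 in the DG) to 0.95 (Psme1 in CA1). Psme1 in CA1 averaged 5.79 ± 0.83 in rTg4510 mice and 4.84 ± 0.84 in tTA mice (SE of the difference 0.65, adjusted p = 0.999), and 4.93 ± 1.59 in DN mice. Psmb5 averaged 6.69 ± 0.75 in the DG of rTg4510 mice and 7.09 ± 0.55 in that of tTA mice (−0.40, adjusted p = 0.916), where 2 rTg4510 arrays, at 5.66 and 5.81, lay below the rest. Psmb6 in the DG averaged 6.66 ± 1.40 in rTg4510 mice and 7.11 ± 0.23 in tTA mice, where 1 rTg4510 array read 3.91 and the other 5 read 6.73 to 7.72.

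**Figure D3:**
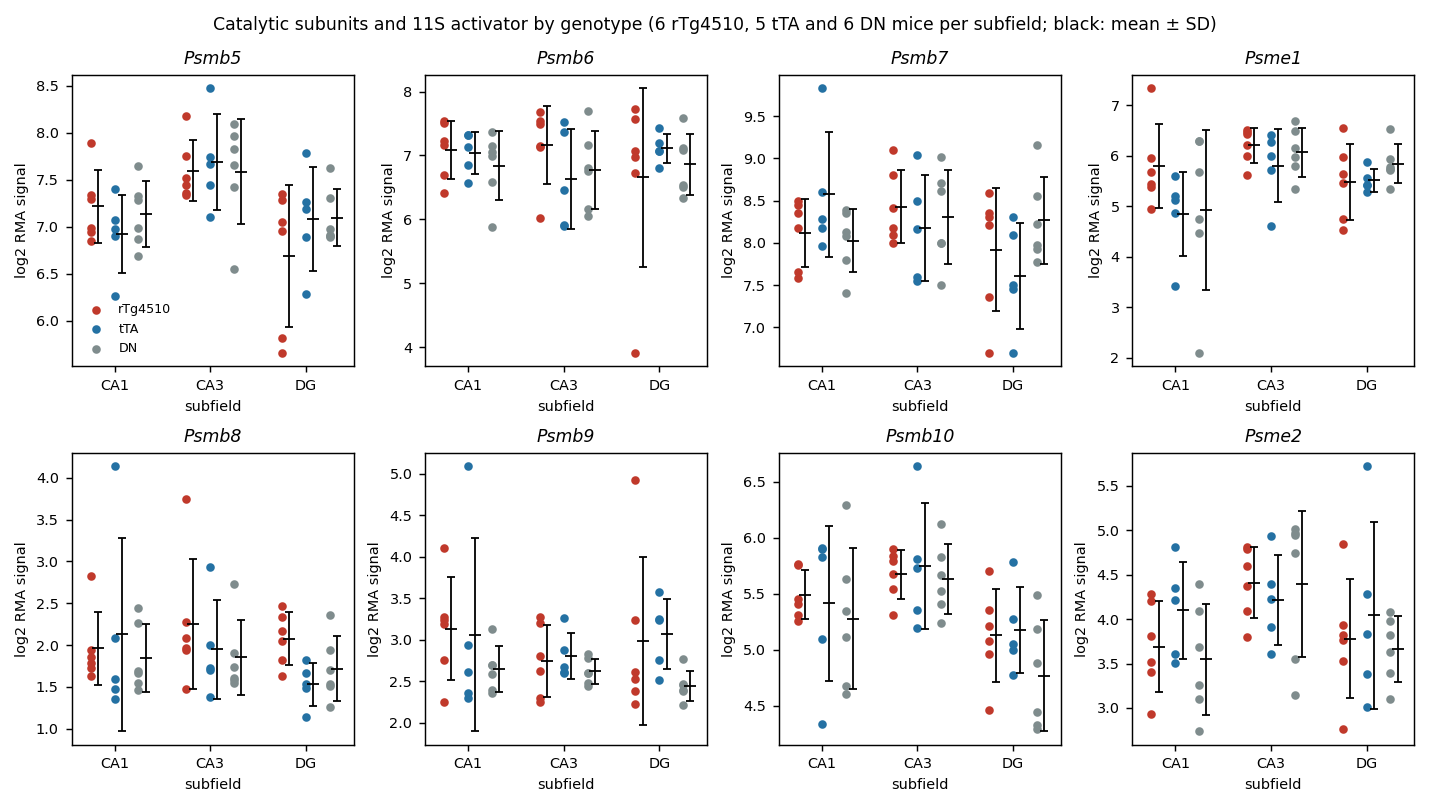
Log2 RMA signal (vertical axes) of the standard catalytic subunits Psmb5, Psmb6 and Psmb7, their immunoproteasome counterparts Psmb8, Psmb9 and Psmb10, and the activator subunits Psme1 and Psme2, by subfield (horizontal axes) and genotype (colours; 6 rTg4510, 5 tTA and 6 DN mice). Points are arrays and black bars give the mean ± SD. The genotypes overlap for each gene in each subfield, and single high arrays stand out for Psmb8 and Psmb9, at 4.14 and 5.09 in CA1 of tTA mice.

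The transactivator alone was examined in tTA against DN mice. By limma 0 of 46 genes passed in CA1, CA3 or the DG, where 0% of all probe sets did in each, and Fisher's least significant difference test also called 0. At an unadjusted p under 0.05 there were 4, 2 and 1 genes in CA1, CA3 and the DG, where 4.59%, 6.13% and 5.21% of all probe sets passed. The smallest p in CA1 was that of Psmg2, which averaged 5.05 ± 0.37 in tTA mice and 4.22 ± 0.74 in DN mice (0.84, SE 0.29, adjusted p = 0.998). Psma4 differed by 0.59, Psmc3ip by −0.77, Psma1 by 1.12 and Psmb7 by 0.55 (each adjusted p = 0.998). In CA3 it was Psmg4, which averaged 3.91 ± 1.71 in tTA mice and 2.49 ± 0.43 in DN mice (1.42, SE 0.56, adjusted p = 0.779), followed by Psma8 (0.40), Psmg2 (−1.02), Psmd9 (0.71) and Psmd4 (−0.50), with adjusted p between 0.805 and 0.837.

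In the DG of tTA against DN mice Psmc1 had the smallest p, at 8.54 ± 0.36 in tTA mice and 9.02 ± 0.13 in DN mice (−0.49, SE 0.21, adjusted p = 0.935). Psmd2 (−0.43), Psmb7 (−0.66), Psmg3 (0.54) and Psmb4 (0.41) followed, each at an adjusted p of 0.935. Psmb4, a beta ring subunit, was the only gene with separate arms in these 3 comparisons (0.381%, 0.534% and 0.559% of all genes in CA1, CA3 and the DG). It read 8.30, 8.71, 8.34, 8.31 and 8.67 in tTA mice, against 7.56 at the lowest, 8.21 at the median and 8.29 at the highest in DN mice, so that the arms were separate by less than the rounding of these values. Over the catalytic and activator pairs the differences ran from −0.66 (Psmb7 in the DG) to 0.62 (Psmb9 in the DG), at an adjusted p of 0.927 or above.

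Between rTg4510 and DN mice, which differ by both transgenes, 0 of 46 genes passed by limma or by Fisher's least significant difference test in any subfield, where 0.00442% of all probe sets (1) passed in CA1 and 0% in CA3 and the DG. At an unadjusted p under 0.05 there were also 0 genes in each subfield, where 5.39%, 3.94% and 4.73% of all probe sets passed, and 0 genes had separate arms (0.356%, 0.195% and 0.161% of all genes). The smallest p values were those of Psma5 in CA1 (0.48, adjusted p = 0.926), Psmg2 in CA3 (−1.03, adjusted p = 0.984) and Psmc2, an ATPase, in the DG (−0.65, adjusted p = 0.967). In CA1 35 of 46 genes lay above 0 and in CA3 37 did, with medians of 0.17 and 0.15, while in the DG 14 did, with a median of −0.12. Over all genes 47.1%, 47.6% and 53.1% lay above 0. With the Gapdh covariate the medians of the 46 genes were 0.08, 0.13 and −0.05. Over 30 alternatives they ran from −0.001 to 0.26 (CA1), 0.10 to 0.20 (CA3) and −0.29 to 0.00 (DG). The DN arrays of each subfield include that of DN mouse 4, whose Prnp went against the label. Of the genes of glia 0 passed the test between rTg4510 and DN mice. In CA1 7 of 7 oligodendrocyte genes lay above 0 (mean signal per array 5.69 to 7.50 in rTg4510 mice and 3.62 to 5.87 in DN mice), as did 7 of 7 astrocyte genes (6.06 to 7.81 in rTg4510 mice and 5.65 to 6.43 in DN mice) and 9 of 10 microglial genes (2.97 to 5.07 in rTg4510 mice and 2.84 to 3.002 in DN mice). In CA3 it was 7 of 7, 6 of 7 and 8 of 10 genes, and in the DG 7 of 7, 6 of 7 and 5 of 10. Their part in the medians was not tested. These comparisons share the rTg4510 arrays with those against tTA mice. The pairs ran from −0.41 (Psmb5 in the DG) to 0.87 (Psme1 in CA1).

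On each mouse's mean of its 3 subfields, 0 of 46 genes passed in the 3 comparisons of genotypes by limma or Fisher's least significant difference test, as did 0% of all probe sets. At an unadjusted p under 0.05 there were 0 genes for rTg4510 against tTA, 4 for tTA against DN (Psma8, Psma1, Psmg3 and Psmb9) and 2 for rTg4510 against DN mice (Psmb9 and Psmf1), where 5.35%, 6.17% and 5.41% of all probe sets passed. Psmb9 averaged 2.95 ± 0.24 in rTg4510 mice and 2.98 ± 0.48 in tTA mice, against 2.57 ± 0.13 in DN mice (0.38 and 0.41 above DN, adjusted p = 0.893 and 0.802). The median differences were 0.01, 0.04 and 0.08, against −0.02, 0.02 and −0.00 over all genes.

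Whether the effect of tau differed between subfields was tested on each mouse's own differences. By limma 0 of 46 genes passed for CA1 minus CA3, CA1 minus DG or CA3 minus DG between rTg4510 and tTA mice, as did 0% of all probe sets, and Fisher's least significant difference test called 0. The smallest p was that of Psmd13, whose CA1 minus DG difference was 0.92 ± 0.70 in rTg4510 mice and −0.64 ± 0.998 in tTA mice, 1.56 apart (SE 0.45, adjusted p = 0.99). Psmc4 (0.99) followed for CA1 minus DG, Psmd7 (0.80) led for CA1 minus CA3 and Psmd9 (−1.10) for CA3 minus DG. At an unadjusted p under 0.05 there were 1, 2 and 1 genes for CA1 minus CA3, CA1 minus DG and CA3 minus DG, where 4.15%, 4.82% and 6.42% of all probe sets passed. Over the pairs the largest were Psmb6 at 0.99 for CA3 minus DG (adjusted p = 0.824) and Psme1 at 0.98 for CA1 minus DG (adjusted p = 0.99).

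Within groups the subunits of the standard core varied together from array to array. After the mean of each of the 9 groups was removed, the Pearson r between 2 of the 46 genes had a median of 0.16 over 1035 pairs and 72.4% of the pairs were above 0. Over the 91 pairs of the 14 standard core subunits the median was 0.39, with 98.9% above 0, and over the 120 pairs of 19S subunits it was 0.25. Over the 15 pairs of the 6 immunoproteasome and 11S genes it was 0.00. Over all genes it was 0.00 and over the 6174 brighter genes 0.02. These are descriptions over 51 arrays that share normalization, RNA quality and, in threes, a mouse.

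The highest r values over all 51 arrays belonged to pairs of core and 19S subunits and of core subunits with each other. Psma7 and the ATPase Psmc3 had an r of 0.716, Psmb6 and the lid subunit Psmd12 of 0.708, Psma5 and the ATPase Psmc1 of 0.706, and Psma3 and Psmb5 of 0.668. Without the 5 arrays that went against their label, r was 0.557 for Psma7 and Psmc3, 0.714 for Psmb6 and Psmd12 and 0.713 for Psma5 and Psmc1. Psmb5 had the highest median r with the other genes, at 0.39, followed by Psmc1 and Psma3 at 0.36. Psma8, Psmd3, Psmg4, Psmb9, Psmb10, Psmg2 and Psmd8 had a median r below 0. Among them are Psmd8 (−0.01) and Psmb10 (−0.04), which had the smallest adjusted p between CA3 and the DG. The lowest r was −0.58, between Psmd8 and Psmc3ip.

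The co-variation was also computed within each subfield, without a test of the difference between subfields. Over the standard core subunits the median r was 0.233 (CA1), 0.410 (CA3) and 0.524 (DG), and over the 19S subunits 0.232, 0.152 and 0.414 (17 arrays each). It was 0.333 for the core and 0.240 for the 19S particle with the Gapdh signal regressed out, and 0.353 and 0.205 without the 5 arrays that went against their label.

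**Figure D4:**
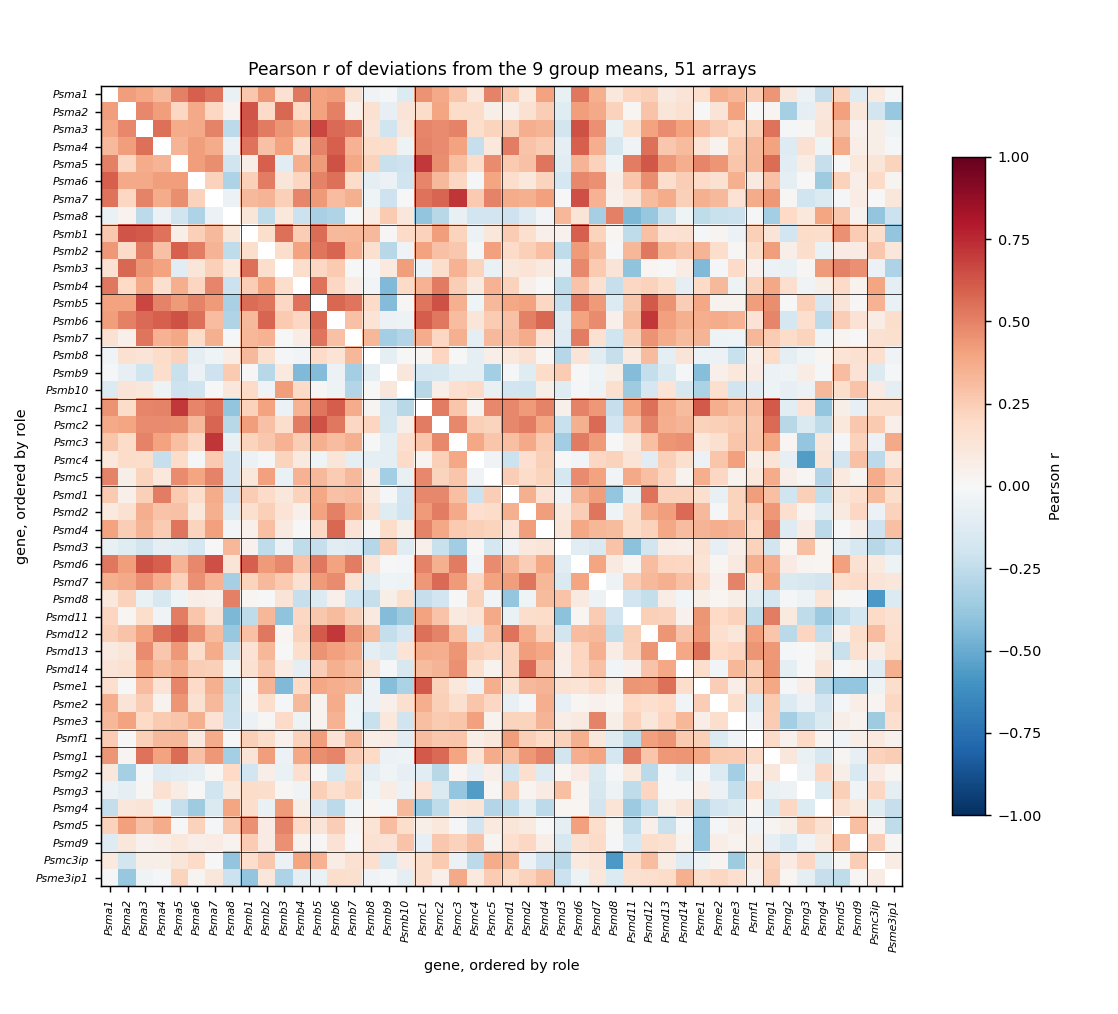
Pearson r (colour) between each pair of the 46 genes (both axes, ordered by role, with lines between role groups) over 51 arrays, after the mean of each of the 9 groups of genotype and subfield was removed. The block of standard core genes is the most evenly red, with a median r of 0.39, while Psma8, Psmb9, Psmb10 and Psmd3 stand out as pale or blue rows (median r below 0).

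A score for each array, the mean over the 46 genes of the deviation from the gene's mean over all arrays, was set beside the Gapdh signal. This score keeps the differences between groups, unlike the co-variation. It ran from −0.67 to 0.53 with a median of 0.03. The lowest were the DG array of rTg4510 mouse 5 (−0.67, with 8 of 46 genes above their mean), the CA1 array of DN mouse 4 (−0.54, 7 genes) and the DG array of rTg4510 mouse 6 (−0.41, 11 genes). Their Gapdh 3′ minus 5′ signals were 3.62, 3.20 and 2.87, the first being the highest of all arrays. The DG array of rTg4510 mouse 1 had a Gapdh signal of 3.19 and a score of 0.11. For the CA3 array of DN mouse 4 they were 3.17 and −0.35, and for the CA1 array of DN mouse 1 they were 2.66 and −0.35. The relation of score and Gapdh signal was not tested. Median scores were 0.03 (CA1), 0.12 (CA3) and −0.08 (DG).

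**Figure D5:**
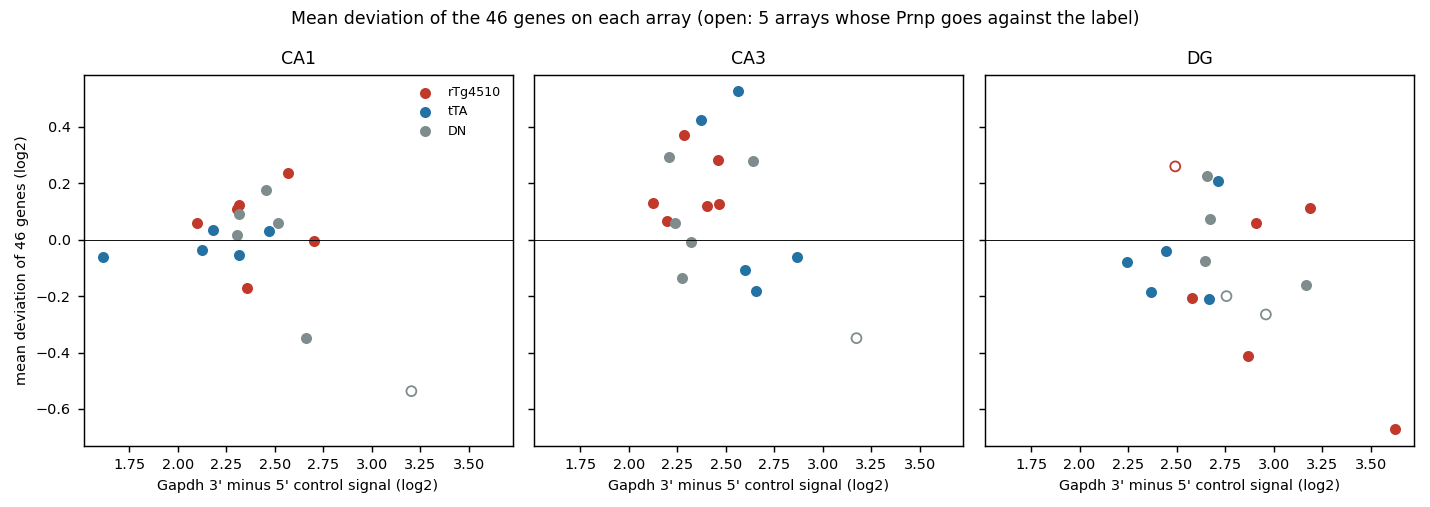
Mean deviation of the 46 genes from their means over all arrays (vertical axis, log2) against the Gapdh 3′ minus 5′ control signal (horizontal axis, log2) for each array in CA1, CA3 and the DG. Colours give the genotype and open symbols the 5 arrays whose Prnp goes against the label. The lowest array, at −0.67, is also the one with the highest Gapdh signal, an rTg4510 DG array. Most CA3 arrays and most CA1 arrays lie above 0.

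The promoters of the proteasome genes were rich in CpG and GC boxes. Windows of 38 of the 46 genes were used. They had a median of 14.5 CpG and 57.4% GC, against 6 CpG and 52.0% GC over 27025 promoters of the same length. Proteasome genes on chromosome 18 (Psma8 and Psmg2) were left out, which was not done for the 27025 promoters. GGGCGG, searched on both strands, lay in 20 of 38 (52.6%), against 33.0% of all promoters, and CCAAT lay in 14 (36.8%), against 34.5%. TGACNNNGC, the antioxidant response core, lay in 4 (10.5%), against 10.1%, in the promoters of Psmb5, Psmb6, Psmd9 and Psmd12. The core of the interferon-stimulated response element lay in 3 (7.9%), against 3.0%, in those of Psmb3, Psmd4 and Psmd9. Of the genes higher in CA3 than in the DG, Psmb5 held the antioxidant response core, Psmd8 and Psme2 a GC box and Psma3 a CCAAT match. Psmb10 and Psmd13 held none of these motifs. A match is a description of the sequence only.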

How the data were processed

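The values are log2 signals that the authors deposited after robust multi-array averaging (RMA) of 51 Affymetrix HT-MG-430A arrays, hybridised with RNA amplified by Ovation Pico WTA and labelled by Encore Biotin. The study's methods call them anti-log, but the file holds the log2 scale. The RMA version is not given in the sources used here.

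Each gene was read from its probe set of highest mean. The members, the gene lists and the rule for naming genes were chosen with earlier results of these data known. In each comparison the naming rule picked members past the threshold (or, where fewer than 3 passed, the 5 of smallest p). It also picked the catalytic and 11S pairs. For genotypes and for subfield differences between genotypes, some of these are given only as a range or are not printed.

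Without 90 control probe sets, 22626 were tested with limma 3.58.1 (R 4.3.3), with Benjamini-Hochberg adjustment over all of them and a threshold of 0.05. The fit of subfields held each mouse as a block, since titles give 3 arrays to an animal. Deviations from group means correlated across probe sets at a median r of 0.045 within a mouse and −0.003 between mice. Genotypes were compared within subfields, on the mean of each mouse and on its differences between subfields. The scripts were tested on simulated data. The number of arrays limits the precision.

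Alternatives were Fisher's least significant difference test (LSD, the methods' test) on log2 or linear signals, other variance, weight, filter, normalization, probe set and sample choices, no block, and each mouse left out. Leaving out 5 or 7 arrays, the Gapdh covariate and the co-variation settings were added after seeing the data. Promoters came from RefSeq (GRCm38.p6). Figures used matplotlib 3.10.9 (Python 3.11.15).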

Additional observations from a re-analysis of the deposited data

Results flagged for a closer look

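In each group of 5 or 6 arrays, the highest or lowest array was set against the others by Dixon's 95% critical value, for 12 members in 9 groups. Of the 108 groups, 10 held such an array, and chance gives about 1 in 20. They concern the genes named in the report and no explanation was tested.

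In Psmd13, the DG array of DN mouse 4 read 3.641, against 5.086 to 5.746 in the other DN mice. Psma3 read 7.140 in CA1 of tTA mouse 4, against 7.785 to 7.920 in the other tTA mice. Psmb6 had a low array in CA3 of rTg4510 mouse 4 (6.013, others 7.125 to 7.673) and in the DG of rTg4510 mouse 5 (3.908, others 6.729 to 7.722).

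The other 6 were high arrays of the dim immunoproteasome subunits. Psmb8 read 2.732 in CA3 of DN mouse 6 (others 1.546 to 1.904), 2.829 in CA1 of rTg4510 mouse 6 (others 1.636 to 1.936), 3.741 in CA3 of rTg4510 mouse 1 (others 1.473 to 2.274) and 4.138 in CA1 of tTA mouse 1 (others 1.351 to 2.080). Psmb9 read 4.921 in the DG of rTg4510 mouse 6 (others 2.229 to 3.237) and 5.092 in CA1 of tTA mouse 4 (others 2.299 to 2.939).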

How the results depend on the processing

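In CA3 against the DG, Psmd8, Psmb10 and Psmb5 passed in all 29 alternatives, Psmd13 in all but LSD on linear signals (adjusted p = 0.0801) and Psma3 in all but the Gapdh covariate, while Psme2 did not pass in 15. Median centring gave 12 genes in CA3 against the DG, and it moved the median of all genes there from 0.05 to 0.12. In CA1 against the DG, where 2 genes passed, LSD gave 1, LSD on linear signals 0, median centring 4, the Gapdh covariate 0 and leaving out 1 mouse 0 to 4. In CA1 against CA3, where 2 passed, LSD gave 1, LSD on linear signals 1, an intensity trend 1, leaving out 5 arrays 1, leaving out 7 arrays 0 and leaving out 1 mouse 0 to 4. The gene that passed was Psmb5, and neither Psme1 nor Psme2, with LSD on linear signals, without the 5 arrays and without the block, Psme2 with LSD and Psme1 with the trend. Without the replicate block 1 gene passed in CA1 against the DG, 1 in CA1 against CA3 and 5 in CA3 against the DG. In the 15 comparisons of genotypes and of subfield differences, 0 genes passed in any alternative. Median r within a subfield departed most from the pooled value over all members in the DG (0.209), over the standard core in CA1 (0.233) and over the 19S particle in the DG (0.414). No called difference reversed. The causes were not tested. Among 206 differences that the naming rule picks and that did not pass, 4 passed in at least 1 alternative and 69 changed sign in at least 1. Psmd5, Psma4, Psmd12 and Psmd9 in CA3 against the DG are not among them, and each passed in at least 1 alternative (Psmd9 with the Gapdh covariate, the other 3 with median centring). Psma8, Psmb8 and Psmb9 lie under the array median, which limits what can be read from their differences.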
